A study of Mus musculus with 4 samples.

Results

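The 10 genes described here encode MHC class I molecules in MC38, a mouse colon carcinoma cell line that came from a C57BL/6 mouse. They are H2-K1 and H2-D1, the classical heavy chains, H2-Q4, H2-Q6, H2-Q7, H2-T22, H2-T23, H2-T24 and H2-M3, which are nonclassical heavy chains, and B2m, the light chain shared by all of them. They were chosen by name, and their NCBI gene IDs identified 10 of the 27179 genes in the count table. RNA-seq was done on wild-type MC38 cells kept with no addition or given IFN-γ (5 ng/mL, 24 h), under normoxic (20% oxygen) or hypoxic (1.5% oxygen) conditions. The labels name the treatments, and the dose, time and oxygen levels are those of the study's methods, which give this dose for most experiments. Each of the 4 conditions was 1 library, so no condition had a replicate, and cells of a single line were the only model. The libraries held between 34302971 and 34537939 counts on genes.

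A class I heavy chain binds a short peptide, mostly cut by the proteasome and moved into the endoplasmic reticulum by the TAP transporter, and reaches the cell surface together with B2m. CD8+ T cells read the peptides on the classical molecules. Many nonclassical molecules show a narrower set of ligands: H2-M3 binds N-formylated peptides, H2-T23 encodes the heavy chain of Qa-1, which NK cell receptors read, and H2-T22 is bound by some γδ T cell receptors. IFN-γ, a cytokine of T cells and NK cells, is known to raise class I expression in many cell types through IRF1 and the coactivator NLRC5.

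IFN-γ raised 6 of these 10 genes, H2-K1, H2-D1, B2m, H2-Q4, H2-T22 and H2-M3, by between 0.66 and 1.41 on the log2 scale, and lowered none, while it raised 4.76% and lowered 1.1% of all tested genes. Hypoxia changed none of the 8 genes tested past the threshold of 0.05 on the adjusted p, while it raised 8.21% and lowered 6.83% of all tested genes. H2-T24 showed no change that passed the test, and H2-Q6, H2-Q7 and H2-T23 were counted at most 16 times in any library. Reads summed over the 9 heavy chains were 1.75-fold higher with IFN-γ under normoxic conditions, and 1.74-fold higher under hypoxic conditions.

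The promoters of these genes are shown first because a stretch of sequence before the start site is nearly the same in H2-K1, H2-D1, H2-Q4, H2-Q6 and H2-Q7, and its last capitals recur in H2-M3, while those of H2-T22, H2-T23 and B2m differ around their motif. RefSeq promoter windows, from 250 bases before to 50 bases after the start site on GRCm38.p6, were at hand for 9 of the 10 genes and not for H2-T24. A stretch of 60 bases is printed for each, 5′ to 3′ on the gene's own strand. Capitals mark an IRF-type motif (GAANNGAAA or GAAANNGAA on either strand) and, in 4 of the stretches, a kappaB-type motif (GGGANTCCC, which reads the same on both strands).

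H2-K1: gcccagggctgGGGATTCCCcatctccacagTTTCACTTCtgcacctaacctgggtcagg

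H2-D1: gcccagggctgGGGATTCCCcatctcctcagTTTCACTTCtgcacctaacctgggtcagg

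H2-Q4: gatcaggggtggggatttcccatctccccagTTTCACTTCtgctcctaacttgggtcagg

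H2-Q6: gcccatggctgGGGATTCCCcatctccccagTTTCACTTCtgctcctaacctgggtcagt

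H2-Q7: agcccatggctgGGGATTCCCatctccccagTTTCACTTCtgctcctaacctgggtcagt

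H2-M3: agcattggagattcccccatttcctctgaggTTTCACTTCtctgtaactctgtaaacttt

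H2-T22: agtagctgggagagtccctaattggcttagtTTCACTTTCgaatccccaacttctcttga

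H2-T23: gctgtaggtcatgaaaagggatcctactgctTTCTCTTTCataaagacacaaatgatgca

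B2m: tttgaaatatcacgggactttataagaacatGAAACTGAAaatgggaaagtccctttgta

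These stretches lie at chr17:34000409-34000468 on the minus strand for H2-K1, chr17:35262913-35262972 on the plus strand for H2-D1, and chr17:35379433-35379492 on the plus strand for H2-Q4. Those of H2-Q6 and H2-Q7 are at chr17:35424667-35424726 and chr17:35439011-35439070, and that of H2-M3 is at chr17:37270102-37270161, all on the plus strand. H2-T22 and H2-T23 are on the minus strand, at chr17:36042904-36042963 and chr17:36032796-36032855, and B2m is on the plus strand at chr2:122147517-122147576. The first spelling, GAANNGAAA, was found in 6 of the 9 windows, each time as the letters TTTCACTTC, and it occurs in 7.52% of all 32851 promoter windows. The second spelling, GAAANNGAA, was added after these windows had been seen, and it was found in the other 3, against 8.56% of all windows. Either spelling was found in 9 of 9, and in 14.8% of all windows. The kappaB-type letters were found in H2-K1, H2-D1, H2-Q6 and H2-Q7, against 0.767% of all windows. No other spelling of this type was searched, so a window without a match may hold one. H2-Q4 reads gggatttccc at this place and was not counted. Other motifs searched on both strands were TTCNNNGAA, the GAS type, found in H2-M3 alone (8.3% of all windows), TGACGNNA, a CRE type, found in H2-Q4 alone (6.61%), and CCAAT, found in all 9 (37.4%). A match is a description of the letters. H2-Q6, H2-Q7 and H2-T23, which hold an IRF-type match, were close to uncounted in every library.

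The classical heavy chains gave most of the reads. H2-K1 (gene ID 14972, chr17:33996012-34000619) had 42418 counts in the normoxic control, 46278 in the hypoxic control, 76364 in the normoxic IFN-γ library and 79686 in the hypoxic IFN-γ library. Both IFN-γ libraries lay far above both controls. The change with IFN-γ was estimated over the 4 libraries with edgeR's quasi-likelihood test, in a model that adds an IFN-γ effect and an oxygen effect, and p-values were adjusted by Benjamini-Hochberg over the 13580 genes tested. For H2-K1 the log2 change was 0.83 (standard error 0.0447, edgeR adjusted p = 8.19e-74). With 1 library per condition, the spread in this test is how far the 4 libraries depart from a sum of both effects, with 1 residual degree of freedom for each gene and pooling over all genes. Culture-to-culture differences and any interaction of the treatments enter it alike, so these p-values do not stand for replicate cultures. The prior degrees of freedom of the fit were infinite (Inf), so each test used the pooled spread and gave a gene's own residual no weight. The size of these p-values depends on the fit: with DESeq2 size factors, the edgeR adjusted p of H2-K1 was 1.56e-14.

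H2-D1 (gene ID 14964, chr17:35263094-35267497) had 30206 and 30811 counts in the normoxic and hypoxic control libraries, and 45753 and 50085 in the normoxic and hypoxic IFN-γ libraries. The IFN-γ libraries were again both above the controls. With IFN-γ it rose by a log2 value of 0.66 (standard error 0.0464, edgeR adjusted p = 6.69e-44). B2m (gene ID 12010, chr2:122147687-122153082) had 18875 counts in the normoxic and 18402 in the hypoxic control, and 35010 and 34361 in the IFN-γ libraries. The counts of B2m at 20% and at 1.5% oxygen were nearly the same within each treatment, and with IFN-γ it rose by a log2 value of 0.91 (standard error 0.0483, edgeR adjusted p = 6.96e-76).

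Of the nonclassical genes, H2-Q4 (gene ID 15015, chr17:35379617-35384674), a heavy chain of the Q region, had 1816 and 2024 counts in the normoxic and hypoxic controls and 4854 and 5219 with IFN-γ. Both IFN-γ libraries had more than 2 times the counts of either control. At 1.41 (standard error 0.0642, edgeR adjusted p = 6.09e-102) its log2 change was the largest of the 6 raised genes. H2-T22 (gene ID 15039, chr17:36037128-36042742) went from 2435 and 2729 counts in the controls to 5704 and 5863 with IFN-γ, a log2 change of 1.18 (standard error 0.0616, edgeR adjusted p = 2.75e-78). H2-M3 (gene ID 14991, chr17:37270234-37274485) had 620 and 699 counts in the controls and 1431 and 1666 with IFN-γ, and its log2 change was 1.24 (standard error 0.0819, edgeR adjusted p = 1.86e-49). In each of these 3 genes the lower IFN-γ library stood above the higher control.

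The other 4 heavy chains were counted rarely. H2-T24 (gene ID 15042, chr17:36003471-36020800) had 87 and 106 counts in the normoxic and hypoxic controls and 113 and 96 with IFN-γ, so that the groups overlapped. The fitted log2 change was 0.13 (standard error 0.219, edgeR adjusted p = 0.915). H2-Q7 (gene ID 15018, chr17:35439140-35443773), a heavy chain of the Qa-2 family, had 5 and 7 counts in the controls and 11 and 13 with IFN-γ, and with a log2 change of 1.001 (standard error 0.705, edgeR adjusted p = 0.617) it did not pass the test. H2-T23 (gene ID 15040, chr17:36029977-36032701) had 9 and 7 counts in the controls and 9 and 16 with IFN-γ. H2-Q6 (gene ID 110557, chr17:35424850-35430055) had 2 and 5 counts in the controls and 1 and 5 with IFN-γ. H2-T23 and H2-Q6 did not pass edgeR's filter on low counts and were not tested, and with so few counts a change in them was not detectable.

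Of the 10 genes, 8 were tested, and 6 of these were raised by IFN-γ against the 4.76% of all tested genes. The IFN-γ libraries were both above both controls in 7 of the 8 tested members, H2-Q7 in addition to the 6, and in 15.3% of all tested genes. H2-Q7 reached the filter's minimum of 10 counts in the IFN-γ libraries alone. Its place in that count was thus partly set by the filter. The median log2 change of the 8 tested members was 0.96, beside -0.01 for all tested genes. That median lies between the values of B2m, 0.91, and H2-Q7, 1.001, so it rests in part on a gene with 5 to 13 counts. In bulk RNA, more transcript in each cell and more cells with the transcript cannot be told apart.

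**Figure D1:**
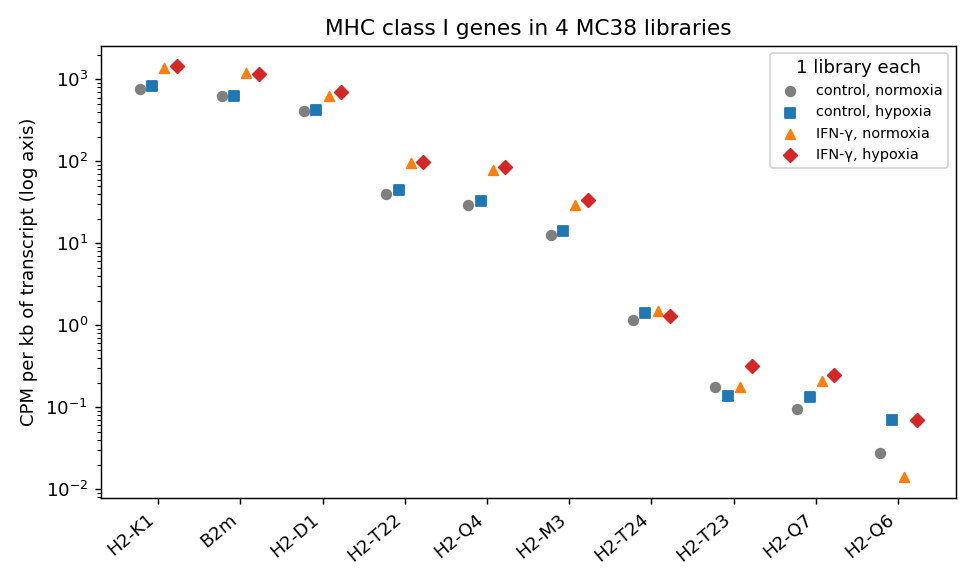
Level of the 10 MHC class I genes in each of the 4 libraries, as TMM-normalized CPM divided by the length in kb of the longest coding transcript, on a log axis; each point is 1 library. H2-K1, B2m and H2-D1 stand at 415 CPM per kb or above in every library, H2-T22, H2-Q4 and H2-M3 between 12.5 and 97.2, and H2-T23, H2-Q7 and H2-Q6 at 0.317 or below.

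Levels were compared between genes as TMM-normalized CPM, the count scaled to library size, per kb of the longest coding transcript in GENCODE M21. In the control library under normoxic conditions H2-K1 was at 757 CPM per kb, B2m at 634, H2-D1 at 415, H2-T22 at 39.9, H2-Q4 at 29.3, H2-M3 at 12.5 and H2-T24 at 1.15. This order held in each of the 4 libraries. With IFN-γ under hypoxic conditions the same genes were at 1437, 1166, 696, 97.2, 85.0, 33.8 and 1.28 CPM per kb. The order below H2-T24 was not settled: H2-T23 was at 0.177 and H2-Q7 at 0.0948 CPM per kb in the normoxic control, but at 0.178 and 0.211 in the normoxic IFN-γ library. These levels rest on between 5 and 11 counts each, and these 2 neighbours in the order do not differ beyond counting error. B2m per kb was 0.505 times the summed heavy chains per kb in the normoxic control, 0.460 times in the hypoxic control, 0.536 times with IFN-γ under normoxic conditions and 0.496 times with IFN-γ under hypoxic conditions. This ratio was lower in the hypoxic library of both pairs, and it is a description with no test.

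Because class I heavy chains are alike in sequence, the share of each transcript that also occurs in another annotated gene was measured in GENCODE M21. In windows of 100 bases, the length of 1 read, 0% of H2-K1, B2m, H2-T24 and H2-M3 was shared, 2.66% of H2-Q4 and 4.64% of H2-D1. H2-T22 shared 14.2% of its windows, mostly with H2-T10, which held 9.81% of its windows, and the shares were 7.28% for H2-T23, 10.8% for H2-Q6 and 16.4% for H2-Q7. In windows of 31 bases the shares rose to 23.3% for H2-K1, 27.5% for H2-D1, 43.4% for H2-Q4 and 63.3% for H2-T22, while B2m stayed at 0%. How reads that match several genes were counted is not given in the sources used here. The counts of H2-D1, H2-T22, H2-Q4, H2-Q6, H2-Q7 and H2-T23 are therefore uncertain, and sums were taken as well. In windows of 31 bases, H2-K1 shared 16.9% with H2-D1, and H2-D1 shared 12.9% with H2-K1. The split of reads between these 2 genes may thus depend on the counting too. H2-T22 held 86.1%, 87.0%, 85.3% and 85.0% of the reads of H2-T22 and H2-T10 in the normoxic control, hypoxic control, normoxic IFN-γ and hypoxic IFN-γ libraries. With both genes summed, the change with IFN-γ was 1.25 under normoxic and 1.15 under hypoxic conditions, near that of H2-T22 alone. The lncRNA A930015D03Rik overlaps the span of H2-T22, H2-T23 and H2-T24 and had 57 and 62 counts in the controls and 101 and 99 with IFN-γ, a log2 change of 0.76 (edgeR adjusted p = 0.0376). Patl2, which overlaps B2m, had between 1 and 6. The libraries kept the strand, but whether the counting used it is not given in the sources used here. The overlap is of whole gene spans, and exons were not compared. Whether reads of that lncRNA and of the heavy chains it overlaps were mixed is therefore not known.

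Summed over the 9 heavy chains, 77598 counts were found in the normoxic control, 82666 in the hypoxic control, 134240 with IFN-γ under normoxic conditions and 142649 with IFN-γ under hypoxic conditions. That was 0.226%, 0.240%, 0.389% and 0.414% of all counts. From these pairs of single libraries the log2 change with IFN-γ was 0.80 under normoxic conditions (95% interval 0.79 to 0.82) and 0.80 under hypoxic conditions (0.79 to 0.81). The intervals are Clopper-Pearson intervals of the 2 counts, cover counting error only and compare libraries, not conditions. H2-K1 and H2-D1 together changed by 0.76 in both pairs, while the 7 nonclassical heavy chains together changed by 1.30 (1.25 to 1.35) under normoxic and 1.22 (1.18 to 1.27) under hypoxic conditions. Nearly all reads of the nonclassical sum were those of H2-Q4, H2-T22 and H2-M3. It therefore says little about H2-T24, H2-Q6, H2-Q7 and H2-T23.

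The makeup of the class I reads differed between the IFN-γ and the control libraries. Nearly all nonclassical reads were those of H2-Q4, H2-T22 and H2-M3. The 7 nonclassical genes held 6.41% of heavy chain reads in the normoxic control (exact 95% interval 6.24 to 6.58), 6.75% in the hypoxic control (6.58 to 6.92), 9.03% with IFN-γ under normoxic conditions (8.88 to 9.19) and 9.03% with IFN-γ under hypoxic conditions (8.88 to 9.18). H2-K1 and H2-D1 held the other 93.6%, 93.3%, 91.0% and 91.0%. Between them, H2-K1 held 58.41% of the reads in the normoxic control, 60.03% in the hypoxic control, 62.53% in the normoxic IFN-γ library and 61.41% in the hypoxic IFN-γ library. Both IFN-γ libraries were above both controls on either share, by more than the counting intervals, and with 1 library per condition neither was tested. The controls themselves differed on the H2-K1 share by more than the counting intervals, at 58.41% and 60.03%. That gap was wider than the gap between the hypoxic control and the hypoxic IFN-γ library.

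**Figure D2:**
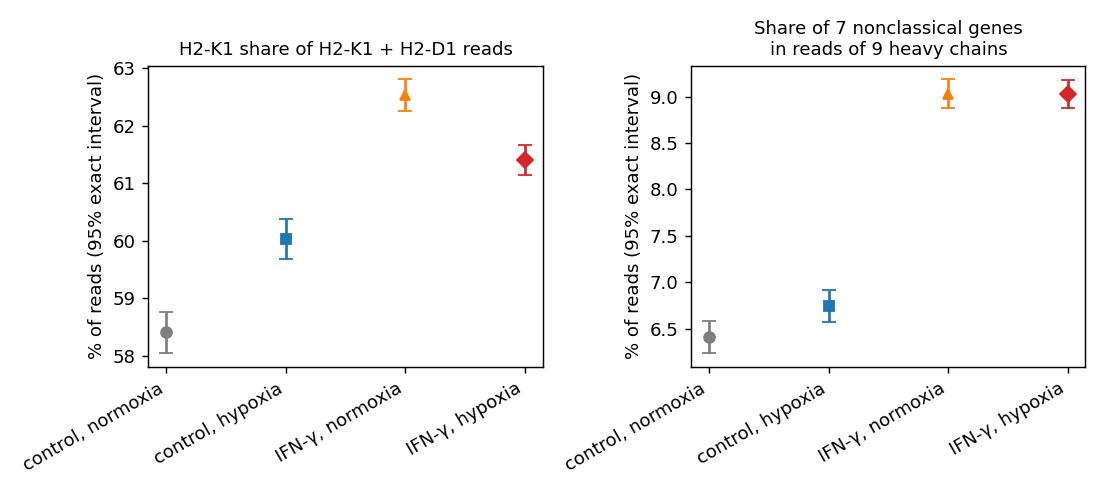
Left, H2-K1 as a percentage of reads on H2-K1 and H2-D1; right, the 7 nonclassical genes as a percentage of reads on the 9 heavy chains, in each of the 4 libraries with exact 95% intervals for counting error; neither vertical axis starts at 0. The H2-K1 share runs from 58.4% in the normoxic control to 62.5% with IFN-γ under normoxic conditions, and the nonclassical share is 9.03% in both IFN-γ libraries against 6.41% and 6.75% in the controls.

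Whether hypoxia altered the response to IFN-γ was described by the change in each pair of libraries. H2-K1 changed by 0.86 (95% interval 0.84 to 0.88) on the log2 scale under normoxic and by 0.80 (0.78 to 0.81) under hypoxic conditions, and H2-D1 by 0.61 (0.59 to 0.63) and 0.71 (0.69 to 0.73). The 2 classical genes thus differed in opposite directions, H2-K1 by -0.07 (-0.09 to -0.04) and H2-D1 by 0.10 (0.07 to 0.13), taken as hypoxic minus normoxic. H2-T22 differed by -0.13 (-0.22 to -0.03). For B2m the difference was 0.01 (-0.03 to 0.05), for H2-Q4 -0.05 (-0.16 to 0.05), and for H2-M3 0.05 (-0.14 to 0.23). All of these lie inside the range from -0.36 to 0.40 that held the central 95% of the 10443 genes counted at least 100 times in each library. The sum of the 9 heavy chains differed by -0.005 (-0.023 to 0.013). No replicate measured the spread between cultures, and these differences were not tested.

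**Figure D3:**
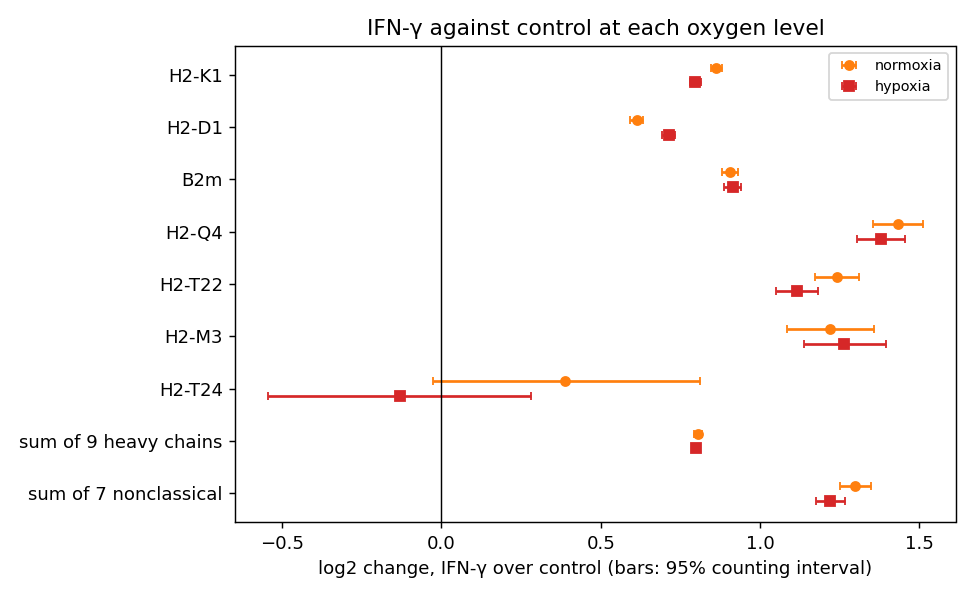
Log2 change with IFN-γ in the normoxic pair (circles) and the hypoxic pair (squares) of libraries for the 7 genes counted at least 87 times in each library and for 2 sums; bars are 95% intervals for counting error only. The 6 raised genes lie between 0.61 and 1.43 in both pairs, and H2-T24 lies at 0.39 and -0.13 with intervals that include 0.

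By hypoxia, 0 of the 8 genes tested were raised and 0 lowered by the edgeR test after adjustment, while 8.21% of all tested genes were raised and 6.83% lowered. At an unadjusted p under 0.05, 3 of the 8 were counted, H2-K1, H2-M3 and H2-Q4, against 26.5% of all tested genes, and DESeq2's Wald test counted 0 of 8 at either threshold. The fitted log2 change with hypoxia was 0.10 for H2-K1 (standard error 0.0444, edgeR adjusted p = 0.138), 0.13 for H2-Q4 (0.0635, edgeR adjusted p = 0.162) and 0.20 for H2-M3 (0.0813, edgeR adjusted p = 0.0754). For H2-D1 it was 0.08 (0.0462, edgeR adjusted p = 0.25), for H2-T22 0.10 (0.061, edgeR adjusted p = 0.293) and for B2m -0.03 (0.0479, edgeR adjusted p = 0.755). The other 2 tested members, H2-Q7 and H2-T24, had edgeR adjusted p-values of 0.82 and 0.968. H2-K1, H2-D1, H2-Q4, H2-T22 and H2-M3 were higher in the hypoxic library of both pairs, and B2m was lower in both. How many of all tested genes kept their direction in both pairs was not counted, so this is a description only.

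Without IFN-γ, the hypoxic library was above the normoxic one by 0.13 on the log2 scale for H2-K1 (95% interval 0.11 to 0.15), 0.03 for H2-D1 (0.01 to 0.05) and 0.17 for H2-T22 (0.09 to 0.25). With IFN-γ these values were 0.06 (0.05 to 0.08), 0.13 (0.11 to 0.15) and 0.04 (-0.01 to 0.09). B2m was at -0.034 (-0.063 to -0.005) and -0.026 (-0.047 to -0.004). The summed heavy chains stood 0.09 higher in both pairs. All of these are small beside the range from -0.36 to 0.51 that held the central 95% of the 10443 genes in either hypoxic comparison.

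**Figure D4:**
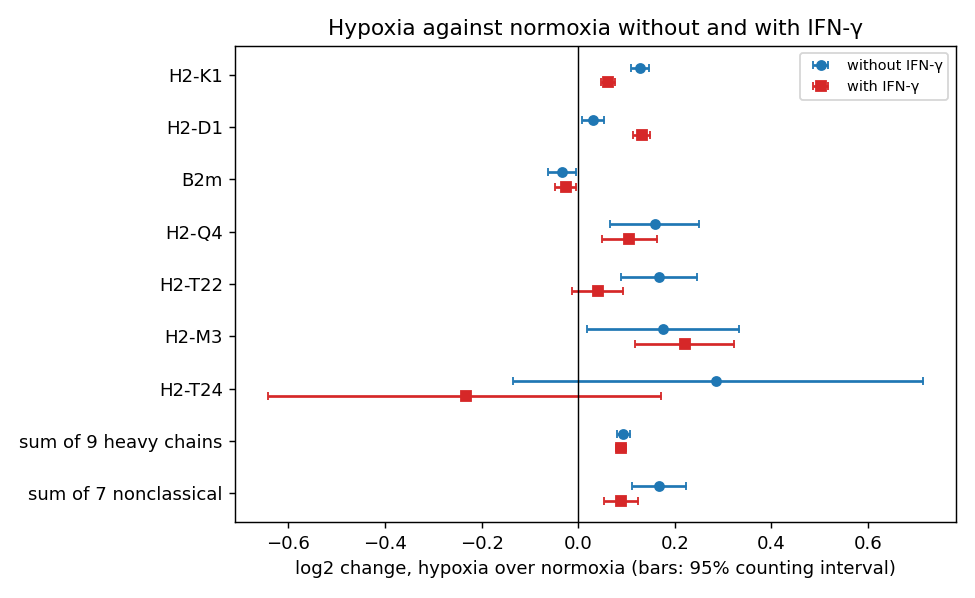
Log2 change with hypoxia without IFN-γ (circles) and with IFN-γ (squares) for the same 7 genes and 2 sums; bars are 95% intervals for counting error only. Apart from H2-T24, whose intervals include 0, every value lies between -0.034 and 0.221.

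The partners that make, move and load class I peptides were taken from a list of 18 genes, all of which were tested. IFN-γ raised 13 of the 18 and lowered none, against 4.76% and 1.1% of all tested genes, and the median log2 change was 1.65, beside 0.96 for the class I members and -0.01 for all tested genes. The list was chosen with results of these data known, so these counts describe it only. Both subunits of the TAP peptide transporter were raised: Tap1 had 4672 and 5179 counts in the normoxic and hypoxic controls and 18913 and 21213 with IFN-γ, a log2 change of 2.04 (standard error 0.0541, edgeR adjusted p = 7.37e-293), and Tap2 changed by 2.11 (standard error 0.0643). All 5 immunoproteasome genes of the list were raised, from Psme1, a proteasome activator subunit, at 1.41 to Psmb9, a catalytic subunit, at 2.76. Psmb9 went from 609 and 721 counts to 4205 and 4718.

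Among the 5 peptide loading genes, Tapbp, which encodes tapasin, rose by 1.58 (standard error 0.0502, edgeR adjusted p = 3.87e-208) and its relative Tapbpl by 1.94 (standard error 0.0751, edgeR adjusted p = 2.16e-141). The general chaperones of the endoplasmic reticulum did not pass the test, with 0.13 for Calr (edgeR adjusted p = 0.0536), 0.13 for Pdia3 (edgeR adjusted p = 0.0645) and 0.02 for Canx (edgeR adjusted p = 0.948). Without the filter on low counts Calr and Pdia3 passed, which made 15 partners raised. Erap1, which trims peptides, rose by 1.34 (standard error 0.0609). Nlrc5, the class I coactivator, rose by 2.66 (standard error 0.0672) from 1112 and 993 counts in the controls to 6229 and 6987 with IFN-γ. Of the RFX subunits that act with NLRC5 at class I promoters, Rfx5 rose by 0.74 (edgeR adjusted p = 1.41e-11), while Rfxap and Rfxank had values of -0.13 and 0.20 that did not pass. Irf1, a transcription factor of IFN-γ signalling, rose by 2.43 (standard error 0.0548).

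**Figure D5:**
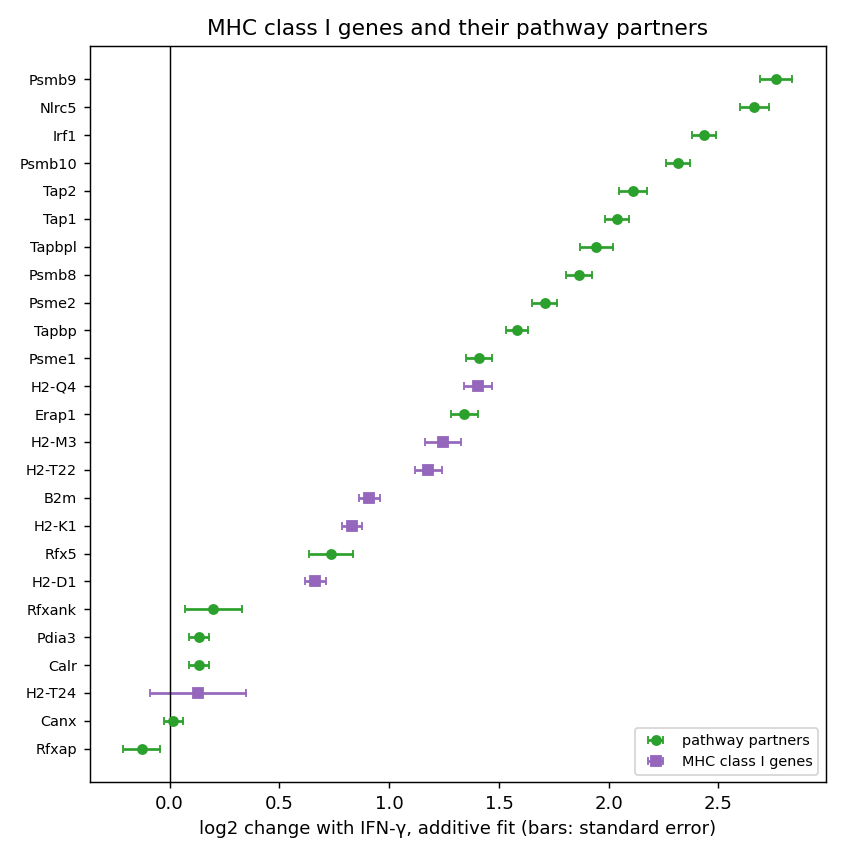
Log2 change with IFN-γ in the additive fit for the 18 pathway partners (circles) and the 7 class I members with at least 87 counts in every library (squares), in order of size. Bars are standard errors derived from the F statistic of the test. The class I members that rose lie between 0.66 for H2-D1 and 1.41 for H2-Q4, and the partners from Psme1 up to Psmb9 lie between 1.41 and 2.76.

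Hypoxia raised 7 of the 18 partners in the same fit, Irf1, Psmb8, Psmb9, Psme2, Rfxap, Tap1 and Tap2, and lowered Psmb10, against 8.21% of all tested genes raised and 6.83% lowered, with a median log2 change of 0.12 over the list beside 0.00 over all tested genes. The largest was Psmb8, a catalytic immunoproteasome subunit, at 0.31 (standard error 0.0584, edgeR adjusted p = 5.46e-06), with 2214 and 3000 counts in the normoxic and hypoxic controls and 8723 and 9948 in the IFN-γ libraries. Psmb10 fell by 0.17 (standard error 0.0524, edgeR adjusted p = 0.0101). The count of 7 fell to 2, Irf1 and Psmb8, by DESeq2's Wald test or without the filter on low counts, and to 0 without IFN-γ in the model.

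Of 24 other H2 class I genes listed, 18 were in the table and 5 were tested. IFN-γ raised 2 of them, H2-T10, with 394 and 406 counts in the controls and 980 and 1031 with IFN-γ (log2 change 1.34, standard error 0.095, edgeR adjusted p = 6.99e-43), and H2-T3, with 2 and 9 counts in the controls and 25 and 26 with IFN-γ (edgeR adjusted p = 0.00517). H2-T3 reached the filter's minimum of 10 counts in the IFN-γ libraries alone, and its 2 counts in the normoxic control lie under the floor of 3. Its call is therefore not independent of the filter. H2-K2, a neighbour of H2-K1, had between 498 and 651 counts and was at 0.18 (edgeR adjusted p = 0.414). Outside the H2 complex, 6 class I-like genes were listed and 5 tested, and Mr1, which presents vitamin B metabolites, rose by 0.53 (standard error 0.142, edgeR adjusted p = 0.00509). Cd1d1, which presents lipids, was at 0.10 (edgeR adjusted p = 0.889).

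Genes with a like pattern were found from log2 CPM centred over the 4 libraries, by Euclidean distance among the 10409 genes outside the lists used here that were counted at least 100 times in each library. Nearest to H2-K1 among these were Oas1a at a distance of 0.0154, Ogfr at 0.0461, Bst2 at 0.072, Nudt13 at 0.0805 and Rbm43 at 0.0903. Oas1a had 1441 and 1552 counts in the controls and 2567 and 2673 with IFN-γ. Nearest to B2m were Il17rc at 0.0367, Oas1g at 0.0461, Rnf213 at 0.0479, Rbm43 at 0.0804 and Apobec3 at 0.0858. With 4 libraries this is a description only.

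The cells were checked against marker genes. Of 8 epithelial markers, Epcam, Cdh1, Krt18 and Cdx2 were at 3 counts or fewer in every library, and the 8 together summed to between 85 and 113 counts, while 6 mesenchymal markers summed to between 79171 and 86801. Most of that sum was Vim, which encodes the intermediate filament vimentin, at 74838 to 81307 counts, and Col1a1, a fibrillar collagen, had only 29 to 66. The cells are labelled as colon cancer cells, and these defining epithelial transcripts were absent or close to it. The 10 leukocyte markers summed to between 303 and 343 counts in the controls and between 259 and 311 in the IFN-γ libraries, and 6 of them were at 3 counts or fewer in every library. Endothelial markers summed to at most 50 counts.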

How the data were processed

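Wild-type MC38 cells were sequenced as 1 library for each of 4 conditions, from poly-A selected RNA with the strand kept and both ends read on a DNBSEQ instrument. Reads were aligned with HISAT2, and the submitters' processing notes name featureCounts and mm10. Versions, annotation and the treatment of reads that match several genes are not given in the sources used here. The authors deposited whole-number counts per gene in 1 table, without normalization. All of its columns were matched to a sample, and 25275 of the 27179 NCBI gene IDs matched a symbol in a RefSeq table for GRCm38.p6, the build that mm10 names, which also gave coordinates and promoters.

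Changes were tested on the deposited counts of all 4 libraries by the quasi-likelihood method of edgeR 4.0.16 in R 4.3.3, with TMM normalization, the default filter with a minimum of 10 counts, an additive model of IFN-γ and oxygen, and Benjamini-Hochberg adjustment at 0.05. The p-values measure only the spread between these 4 samples, with a common dispersion of 0.00222 (coefficient of variation 4.71%). Each standard error is the size of the log2 change divided by the square root of the quasi-likelihood F statistic. Changes within a pair of libraries are ratios of CPM after TMM scaling, on the log2 scale, with 0.5 added to each count. Clopper-Pearson and, for differences of changes, Poisson intervals at 95% cover counting error only. At depths of 34302971 to 34537939 counts, 3 counts were taken as the floor. Alternatives were DESeq2's size factors, total counts, DESeq2's Wald test (DESeq2 1.42.0), 2 other filters on low counts, a model without the other stimulus, a log2 change of at least 1, 5 counts added, and other sums of heavy chains. Scripts were tested on simulated data.

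All 10 members are named with their values, pathway partners and other class I genes by list, and the 5 genes outside the lists nearest in pattern to H2-K1 and to B2m. The members and lists were chosen with earlier results of these data known, and 1 gene was then taken off the list of pathway partners, for a reason unrelated to its values, and is not reported here.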

Additional observations from a re-analysis of the deposited data

Results flagged for a closer look

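H2-T24 and H2-T23 moved in opposite directions in the pairs of libraries, and with 1 library per condition these differences were not tested. H2-T24 had a log2 change with IFN-γ of 0.389 under normoxic conditions and -0.129 under hypoxic conditions, and a log2 change with hypoxia of 0.286 without IFN-γ and -0.233 with it. The 95% counting intervals of all 4 changes include 0. H2-T23, with between 7 and 16 counts, had a log2 change with hypoxia of -0.338 without IFN-γ and 0.798 with it, and both intervals include 0 as well.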

How the results depend on the processing

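The 6 genes raised by IFN-γ remained called under each of 6 other fits (DESeq2 size factors, total counts, DESeq2's Wald test, no filter, at least 10 counts in every library, oxygen left out), and their highest adjusted p over these was 0.00524, for H2-D1. When a log2 change of at least 1 was required as well, 3 remained, H2-M3, H2-Q4 and H2-T22. No member was called for hypoxia in any of these fits, and the lowest adjusted p was 0.0823, for H2-M3. The partners raised by hypoxia fell from 7 to 2 with DESeq2's Wald test, to 2 without the filter, and to 0 with IFN-γ left out. The cause of these falls was not tested. Requiring a log2 change of at least 1 left 0 by definition, as the largest was 0.31, for Psmb8. The change of the summed heavy chains with IFN-γ under normoxic conditions, 0.80, was 0.78 with total counts. Summing other genes moved it by construction: H2-K1 and H2-D1 gave 0.76 in either pair, and the 7 nonclassical genes gave 1.30 and 1.22 under normoxic and hypoxic conditions, 0.17 for hypoxia without IFN-γ and -0.08 for the difference. No call changed direction. Near 0, signs did turn: the difference of the summed heavy chains, -0.005, was 0.01 with DESeq2 size factors or total counts, and the change of H2-T23 with IFN-γ under normoxic conditions, 0.01, was -0.01 with total counts. Leaving out a library was not run, since it leaves no residual degree of freedom. The additive model already compares IFN-γ with control within each oxygen level, and with 1 library per condition no replicate numbers were there to pair. Low counts limit H2-Q6, H2-Q7 and H2-T23, and why they were low was not tested. The lack of replicates limits every p-value here.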
